A study of Mus musculus with 6 samples.

Results

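The tendon lineage regulators and matrix markers examined here were 9 genes: the transcription factors *Scx*, *Mkx* and *Six2*, and the matrix or secreted products *Tnmd*, *Thbs4*, *Comp*, *Tnc*, *Clu* and *Fibin*. They were taken as a named list of genes that tendon cells switch on as they are specified and as they mature. They were chosen with earlier results of these data known, and were found by gene symbol. They make up 9 of the 18099 genes of the expression table, and all 9 were among the 14261 genes with enough reads to be tested. The study asked how loss of the energy-sensing kinase AMPKα1 (gene *Prkaa1*) from macrophages bears on the repair of the cut Achilles tendon in newborn mice. RNA was taken from the repair tissue of 6 neonatal mice 7 days after transection. The control group held 3 *Ampkα1 fl/fl* littermates without Cre, and the Cre group held 3 *LysM-Cre; Ampkα1 fl/fl* mice, which have the same floxed alleles plus Cre. Both groups therefore carried floxed *Ampkα1* and both were injured, and no uninjured tendon was analysed here. LysM-Cre is expressed from the lysozyme M locus in the whole myeloid lineage, granulocytes included. The RNA came from whole tissue, so each tendon gene was read in a mixture of tendon cells, which LysM-Cre is not known to target, and the other cells of the repair site.

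Tendon cells arise from mesenchymal progenitors that switch on Scx, a basic helix-loop-helix protein that binds E-box sequences and turns on matrix genes such as *Tnmd*. Mkx is a homeobox protein that sustains production of fibrillar collagen as the tendon matures, and Six2 is a homeobox protein found in developing limb tendons among other tissues. TGFβ ligands induce *Scx*, and the mature tenocyte is recognised by tenomodulin (*Tnmd*) and by a collagen matrix that carries thrombospondins (*Thbs4*, *Comp*) and tenascin-C (*Tnc*).

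*Clu* was higher in the Cre group, and it was the only one of the 9 genes whose difference passed the edgeR test without a block for replicate number. In the edgeR fit with that block *Clu* did not pass either (adjusted p = 0.0611), and DESeq2 called *Comp* beside *Clu*. *Clu* stood at 56.8 ± 3.61 CPM in the Cre group and 39.3 ± 1.18 CPM in the control group (mean ± SD, n = 3 mice each). CPM are the reads of a gene scaled to the total reads of its library, after that total is adjusted by the TMM factor of the library. The other 8 genes, *Scx*, *Mkx* and *Tnmd* among them, did not pass by edgeR, and their estimated log2 fold changes lay between -0.29 for *Six2* and 0.35 for *Comp*. In bulk tissue, fewer cells of a type and less RNA per cell cannot be told apart, and this holds for every level given here.

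The stretch of DNA upstream of a gene is shown for *Tnmd* and *Tnc*, which ordered the 6 libraries in nearly opposite ways. Each sequence is the 250 bases before the first transcribed base, from RefSeq on GRCm38.p6, read 5′ to 3′ on the strand of the gene. Capitals mark the E-box CANNTG, the core motif bound by basic helix-loop-helix proteins, which reads the same on both strands. The *Tnmd* stretch lies at chrX:133850758-133851007 on the plus strand, and the *Tnc* stretch at chr4:64047016-64047265 on the minus strand.
Tnmd: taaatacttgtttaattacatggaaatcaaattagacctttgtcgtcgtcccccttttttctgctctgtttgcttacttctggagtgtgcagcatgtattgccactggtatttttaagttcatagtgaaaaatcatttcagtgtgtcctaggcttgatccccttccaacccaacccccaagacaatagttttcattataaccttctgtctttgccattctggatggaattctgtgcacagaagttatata
Tnc: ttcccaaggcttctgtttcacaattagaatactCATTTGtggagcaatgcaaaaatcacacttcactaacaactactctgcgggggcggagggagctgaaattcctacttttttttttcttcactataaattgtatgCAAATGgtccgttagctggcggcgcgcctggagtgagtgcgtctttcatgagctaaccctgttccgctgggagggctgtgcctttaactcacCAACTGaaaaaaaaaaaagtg
The *Tnmd* stretch held no match to CANNTG, whereas *Tnc* held 3, at 217, 113 and 21 bases before the start. Of 32851 promoter stretches of the same length, 66.2% held at least 1 E-box and 12.2% held 3 or more. Entries were found for 5 of the 9 genes, and the stretches of *Six2* and *Fibin* also held no E-box, while that of *Thbs4* held 1. A second start of *Tnc* in RefSeq had 2 E-boxes in its own 250 bases. A match is a description of the letters only. No sequence is shown for *Scx*, *Mkx*, *Comp* and *Clu*.

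Each library held between 18076805 and 19479887 reads assigned to genes. *Lyz2*, the locus that carries Cre, had between 390.4 and 425 CPM in the control group and between 0.432 and 0.811 CPM in the Cre group, so the libraries followed their genotype labels at that locus. The groups thus differed in *Lyz2* RNA as well as in Cre, and the part of this in the tendon gene levels was not tested. *Prkaa1* itself stood at 39.2, 37.6 and 37.8 CPM in the control libraries and at 32.6, 40.6 and 35.2 CPM in the Cre libraries. These groups overlapped, and the log2 fold change was -0.08 (edgeR adjusted p = 0.744). Skeletal muscle genes set libraries apart inside both groups. The summed level of 20 of them was 279, 831 and 4336 CPM in control libraries 1, 2 and 3 and 4659, 1501 and 12791 CPM in Cre libraries 1, 2 and 3. All 20 had higher estimates in the Cre group, 0 passed the test by edgeR or DESeq2, and 1 had an unadjusted p under 0.05 (19 with the replicate block). Of all genes tested, 14.5% had an unadjusted p under 0.05 (15.9% with the replicate block).

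Tendon markers were abundant in every library. On the TPM scale, which divides by transcript length and so allows genes to be compared, *Tnmd* had the highest level of the 9 genes with a mean of 3550 TPM over the 6 libraries (range 3090 to 3980). That is above 99.8% of the 17757 genes with a mean TPM above 0. *Thbs4* followed at 1780 TPM (1640 to 2040) and *Tnc* at 611 TPM (501 to 777), and these 3 matrix genes kept this order in 6 of 6 libraries, with ranges that did not overlap. *Fibin* at 357 TPM (322 to 383), *Comp* at 329 TPM (243 to 384) and *Scx* at 281 TPM (248 to 336) came next. The range of *Fibin* overlapped that of *Comp*, and the range of *Comp* that of *Scx*, so these neighbours were not separated beyond their spread. *Clu* at 64.4 TPM (49.7 to 80.7), *Mkx* at 37.2 TPM (33.7 to 44.1) and *Six2* at 4.65 TPM (3.75 to 5.39) were the lowest, and each was below the gene before it in every library. Among the 3 regulators, *Scx* was thus the most abundant, above 97.1% of these 17757 genes, while the *Six2* level was above only 36.7% of them.

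**Figure D1:**
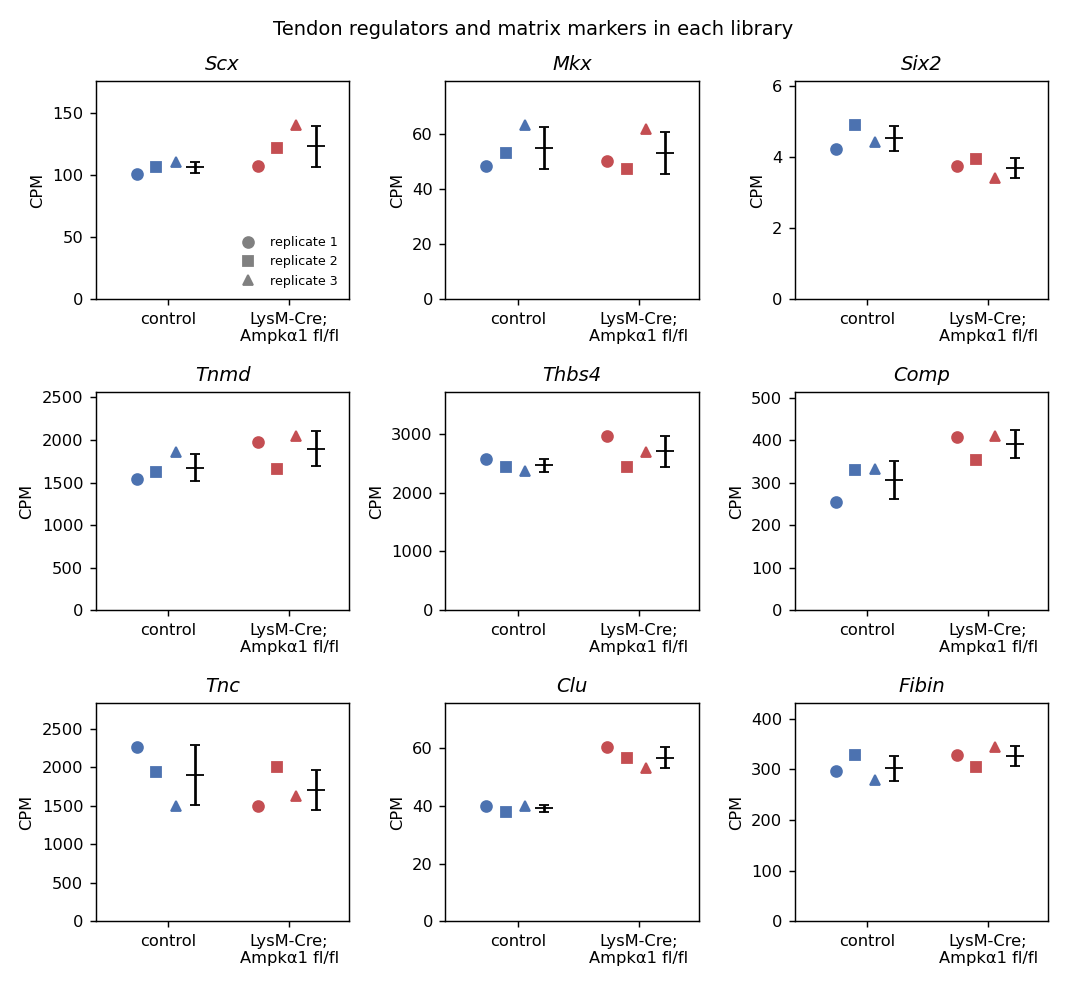
Level of the 9 tendon genes in each library, in CPM (vertical axes from 0), for the control group (blue) and the Cre group (red). Symbols give the replicate number, and the black bars give the mean and SD of 3 mice. The 3 red points of *Clu*, between 53.3 and 60.5 CPM, sit above all 3 blue points, between 37.9 and 40.1 CPM.

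Of the transcription factors, *Scx* (chr15:76457411-76459468) stood at 101, 107 and 111 CPM in control libraries 1, 2 and 3 and at 108, 121 and 141 CPM in Cre libraries 1, 2 and 3. The third Cre library was the highest of all 6, and the groups overlapped because the first Cre library lay below the third control. Each Cre library was above the control of its own number, in 3 of 3 pairs, and the fit with the replicate block did not pass either (edgeR adjusted p = 0.238). For *Scx* the log2 fold change was 0.22 (SE 0.10, 95% interval -0.02 to 0.45, edgeR adjusted p = 0.387). As a fold, the interval reached from 0.986 to 1.37.

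*Mkx* was at 48.1, 53.1 and 63.2 CPM in the control group and at 50.2, 47.2 and 61.6 CPM in the Cre group. The third library was the highest in each group and the values were interleaved. The estimate was a log2 fold change of -0.05 (SE 0.13, 95% interval -0.36 to 0.27, edgeR adjusted p = 0.914), and its sign turned when control library 3 or Cre library 2 was left out (0.07 and 0.03).

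*Six2* (chr17:85662736-85688254) went the other way. It was at 4.23, 4.92 and 4.44 CPM in the control group and at 3.75, 3.95 and 3.41 CPM in the Cre group. All 3 Cre libraries were below all 3 controls, at the lowest level of the 9 genes. The log2 fold change of -0.29 (SE 0.15, 95% interval -0.64 to 0.06) did not pass the test (edgeR adjusted p = 0.437). By exact permutation p was 0.1, the smallest that 3 against 3 allows.

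Among the matrix genes, *Tnmd* (chrX:133851008-133865577), which encodes a membrane glycoprotein of mature tenocytes, was at 1546, 1621 and 1855 CPM in the control group and at 1977, 1664 and 2049 CPM in the Cre group. The second Cre library fell within the control range, so the groups overlapped, although each Cre library was above the control of its own number (3 of 3 pairs, blocked edgeR adjusted p = 0.372). Its log2 fold change was 0.18 (SE 0.10, 95% interval -0.06 to 0.42, edgeR adjusted p = 0.489). *Thbs4* (chr13:92751586-92794818), a thrombospondin that organises the collagen of tendon and muscle attachments, was at 2572, 2442 and 2368 CPM in the control group and at 2965, 2438 and 2697 CPM in the Cre group. Here too the second Cre library lay among the controls, and the log2 fold change was 0.13 (SE 0.08, 95% interval -0.06 to 0.33, edgeR adjusted p = 0.51).

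*Comp* (chr8:70373548-70382066), another thrombospondin that binds collagen in tendon and cartilage, was at 254, 331 and 332 CPM in the control group and at 408, 353 and 410.4 CPM in the Cre group. All 3 Cre libraries were above all 3 controls. This gave a log2 fold change of 0.35 (SE 0.12, 95% interval 0.07 to 0.64), with an unadjusted p of 0.0217, and it did not pass after adjustment (edgeR adjusted p = 0.236). DESeq2 on the same counts called it (adjusted p = 0.0344), the only one of 13 alternatives to do so. *Tnc* (chr4:63959785-64047015), a matrix glycoprotein that is strongly made in embryonic and injured tendon, was at 2264, 1937 and 1493 CPM in the control group and at 1491, 1999 and 1629.7 CPM in the Cre group. Control library 1 was the highest and Cre library 1 the lowest, and within each group the libraries differed by more than the group means did. Its log2 fold change was -0.15 (SE 0.17, 95% interval -0.56 to 0.25, edgeR adjusted p = 0.742), the widest interval among the matrix and secreted genes.

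*Clu* (chr14:65968483-65981548) encodes clusterin, a secreted chaperone that many cell types make under stress. It was at 39.8, 37.9 and 40.1 CPM in the control group and at 60.5, 56.5 and 53.3 CPM in the Cre group. Every Cre library was above every control, and the control libraries lay within a narrow band. The log2 fold change was 0.53 (SE 0.06, 95% interval 0.38 to 0.68), a 1.45-fold higher level, with an edgeR adjusted p of 0.023, and *Clu* ranked 51 among all genes tested by p. The exact permutation test gave p = 0.1, the smallest it can give. The difference lay between 0.48 and 0.57 on the log2 scale over 13 alternatives, of which 8 kept the call and 5 did not. In the fit with a replicate block the adjusted p was 0.0611, and it was 0.135, 0.147 and 0.0753 without control library 1, 2 or 3 and 0.0968 without Cre library 1.

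*Fibin* (chr2:110360925-110362993), a secreted factor named for its part in fin and limb bud formation, was at 297, 329 and 279.8 CPM in the control group and at 328, 305 and 344 CPM in the Cre group. The second control was above the first and second Cre libraries. The log2 fold change was 0.11 (SE 0.08, 95% interval -0.08 to 0.30, edgeR adjusted p = 0.593).

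Over the 9 genes, 6 estimates were higher and 3 lower in the Cre group, and 1 passed the test by edgeR, against 0.898% of all genes tested in either direction and 0.330% called higher. An unadjusted p under 0.05 was reached by 2 of the 9, *Comp* and *Clu*, against 14.5% of all genes. The groups did not overlap for 3 of the 9, with *Comp* and *Clu* higher and *Six2* lower, against 20.4% of all genes. In the edgeR fit with the replicate block 0 of the 9 passed, against 0.330% of genes, and 3 of the 9 had an unadjusted p under 0.05, against 15.9% of genes. By DESeq2 2 passed, *Comp* and *Clu*, against 4.68%. The median log2 fold change of the 9 was 0.13, beside -0.00 for all genes tested, and their median absolute change was 0.18, beside 0.11.

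**Figure D2:**
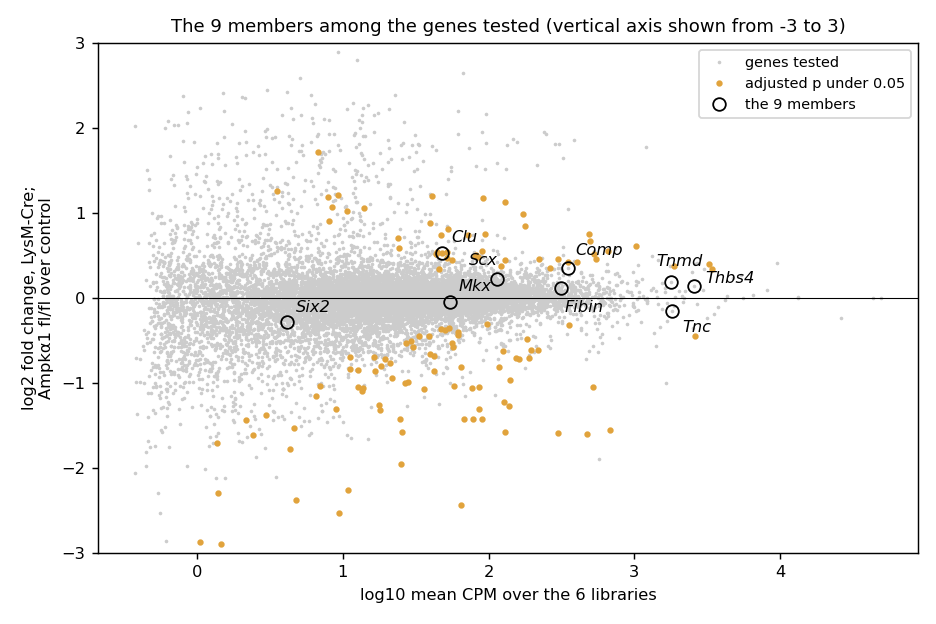
Log2 fold change (Cre group over control, vertical axis, shown from -3 to 3, with 17 genes outside it) against log10 of the mean level in CPM for the 14261 genes tested. Orange points are the 128 genes with an adjusted p under 0.05, and open circles are the 9 tendon genes. Only *Clu* of the 9 circles lies on an orange point, and *Tnmd*, *Thbs4* and *Tnc* sit far to the right, among the most abundant genes.

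The 9 genes did not all vary in the same direction from library to library, although some pairs ran closely alike or opposite. On log2 CPM over the 6 libraries, *Tnmd* and *Comp* had r = 0.85 and *Tnmd* and *Tnc* had r = -0.89, as descriptions of 6 libraries that share the groups and the tissue makeup. *Scx* and *Tnmd* had r = 0.60, and *Scx* and *Thbs4* r = 0.09. The order of the libraries by *Tnmd* was the same as their order by the summed level of skeletal muscle genes (Spearman's rho = 1 over 6 libraries), and for *Comp* it was nearly so (rho = 0.943). *Tnc* ran against that order (rho = -0.771), *Scx* had rho = 0.771, and *Clu* had rho = 0.657. The part of muscle in these levels was not tested.

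**Figure D3:**
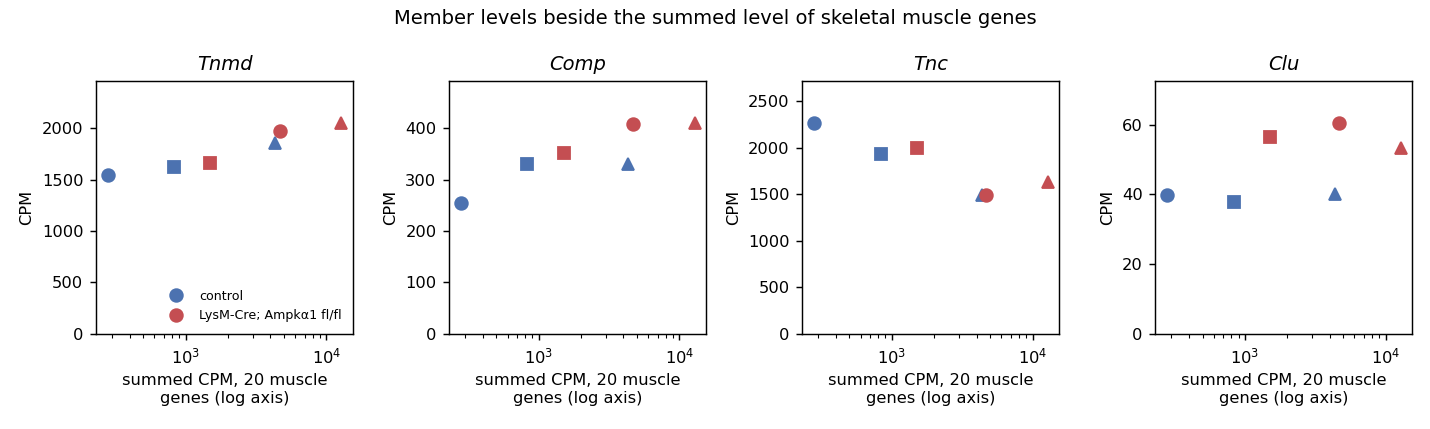
Levels of *Tnmd*, *Comp*, *Tnc* and *Clu* in CPM (vertical axes, from 0) against the summed level of 20 skeletal muscle genes in CPM (horizontal log axis) in the 6 libraries, blue for control and red for the Cre group, with circles, squares and triangles for replicates 1, 2 and 3. *Tnmd* is higher wherever the muscle sum is higher, from 279 CPM to 12791 CPM, whereas the *Clu* points form a lower blue and an upper red level.

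The summed levels of macrophage, cell division and endothelial genes were lower in every Cre library than in every control. Shares over all genes, for the counts that follow, were 14.5% at an unadjusted p under 0.05, 0.898% by edgeR and 4.68% by DESeq2. Of 15 macrophage and leukocyte genes, 12 had lower estimates, 8 of them at an unadjusted p under 0.05. The other 3 had higher estimates, 1 of them at an unadjusted p under 0.05. The test was passed by 0 of the 15 by edgeR and by 4 by DESeq2. Their summed level was between 1242 and 1293 CPM in the control group and between 808 and 1043 CPM in the Cre group. That of 12 cell division genes was between 476 and 613 CPM in the control group and between 296 and 425 CPM in the Cre group, with 12 of 12 estimates lower at an unadjusted p under 0.05, and 0 past the test by edgeR and 8 by DESeq2. That of 8 endothelial genes was between 827 and 885 CPM against 748 to 774 CPM, with 8 of 8 estimates lower, 3 at an unadjusted p under 0.05, and 0 past the test by edgeR and 2 by DESeq2. Cartilage genes, which bear on *Comp*, summed to 1193 to 3193 CPM in the control group and 1542 to 1674 CPM in the Cre group, with 6 of 9 tested genes at lower estimates. In that list 4 genes had an unadjusted p under 0.05, 2 higher and 2 lower, and 1 passed the test by edgeR (*Acan*, higher, named after its values were seen), which became 0 with the replicate block. No marker of these lists was at 0 reads in all libraries, and the part of these cell types in the tendon gene levels was not tested.

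By likeness to *Scx* over the 6 libraries, among 9921 genes with a mean of at least 10 CPM, the closest were *Mad2l1bp* (r = 0.986), *Rab5a*, *Ccdc186*, *Map2k4* and *Cdc37l1* (r = 0.97), and 75 genes exceeded an r of 0.9. None of the other 8 tendon genes was among these 5. For *Tnmd* the closest were *Retreg1* (r = 0.99), *Mybpc2*, *Klhl8*, *Gle1* and *Tacc2*, and 370 genes exceeded 0.9. *Mybpc2*, the myosin binding protein of fast skeletal muscle, went from 1.38, 2.35 and 22.9 CPM in the control libraries to 38.7, 4.16 and 52.9 CPM in the Cre libraries.

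The genes around the 9 were read from the same fit. Of all genes, 14.5% had an unadjusted p under 0.05, edgeR called 0.898% and DESeq2 called 4.68%. The other tendon regulators, *Egr1*, *Egr2*, *Eya1*, *Eya2*, *Nfatc4* and *Sox9*, had 6 of 6 higher estimates, with a median log2 fold change of 0.30, and 0 passed the test by edgeR, while 3 had an unadjusted p under 0.05 and DESeq2 called *Nfatc4* and *Sox9*. *Sox9*, a regulator of cartilage and of the progenitors where tendon meets bone, was at 26.0, 22.5 and 20.1 CPM in the control group and at 32.8, 52.9 and 32.7 CPM in the Cre group. The groups did not overlap and Cre library 2 was the highest. Its log2 fold change of 0.79 (95% interval 0.29 to 1.28) had an edgeR adjusted p of 0.152. *Eya1*, a coactivator that partners Six2 and its relatives, was at 2.49 CPM or less in every library, with a log2 fold change of 0.38 (edgeR adjusted p = 0.793) that turned to -0.15 without Cre library 3.

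Of 12 genes of tendon-inducing signals, with receptors and intracellular mediators included, 11 were tested. By edgeR 1 rose, against 0.898% of all genes called in either direction. An unadjusted p under 0.05 was reached by 4, with 3 higher and 1 lower, against 14.5% of all genes. DESeq2 called 1, against 4.68% of genes. *Tgfb3*, a TGFβ ligand, was at 338, 356 and 343 CPM in the control group and at 488, 428 and 466 CPM in the Cre group. The groups were well apart, and the log2 fold change was 0.41 (95% interval 0.26 to 0.57, edgeR adjusted p = 0.0467). The call was lost with the replicate block (adjusted p = 0.0953) and with upper quartile scaling in edgeR (adjusted p = 0.0539). It was also lost on leaving out any library but Cre library 2 (0.115 to 0.217). *Tgfb1* and *Tgfb2*, the other ligands, had log2 fold changes of -0.04 and -0.02, and the receptor gene *Tgfbr2* had 0.18 (edgeR adjusted p = 0.25). *Gdf6*, a ligand of the bone morphogenetic protein family, was at 0.929 CPM or less in every library and had a log2 fold change of -1.75 (edgeR adjusted p = 0.139).

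Of 26 tendon matrix genes, 1 rose and 1 fell by edgeR, against 0.898% of all genes. The median log2 fold change of the list was -0.00. An unadjusted p under 0.05 was reached by 11, with 6 higher and 5 lower, against 14.5% of all genes tested. DESeq2 called 10 of the 26, against 4.68% of genes. *Aspn*, asporin, was at 1673, 1636 and 1569 CPM in the control group and at 2152, 2031 and 2110.5 CPM in the Cre group. *Dcn*, decorin, was at 2927, 3175 and 2951 CPM in the control group and at 2247, 2264 and 2099 CPM in the Cre group. These are both small leucine-rich proteoglycans of the collagen fibril surface, and each separated the groups, in opposite directions. The log2 fold change was 0.37 for *Aspn* (95% interval 0.24 to 0.49, edgeR adjusted p = 0.0409) and -0.45 for *Dcn* (95% interval -0.59 to -0.31, edgeR adjusted p = 0.0301). Both calls were lost with the replicate block (0.0816 and 0.0611) and with limma on log2(TPM + 1) (adjusted p = 0.0847 and 0.105). The *Aspn* call was also lost with upper quartile scaling in edgeR (adjusted p = 0.0555). Both were lost on leaving out any library but Cre library 2. The edgeR adjusted p then lay between 0.0853 and 0.185 for *Aspn* and between 0.0659 and 0.155 for *Dcn*. *Ogn*, a further member of this proteoglycan family, had a log2 fold change of 0.49 (edgeR adjusted p = 0.107), and DESeq2 called it (adjusted p = 0.000112). The type I collagen genes *Col1a1* and *Col1a2* had log2 fold changes of -0.00 and -0.01, with 95% intervals from -0.18 to 0.17 and from -0.20 to 0.18.

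Of 16 relatives of the 9 genes that were tested, 1 fell by edgeR, against 0.898% of all genes called in either direction. An unadjusted p under 0.05 was reached by 8, with 4 higher and 4 lower, against 14.5% of all genes. DESeq2 called 4, against 4.68% of genes, with *Thbs2* and *Tnn* higher and *Thbs3* and *Tnxb* lower. *Tnxb*, which encodes tenascin-X, was at 666, 739 and 696 CPM in the control group and at 348, 382 and 283 CPM in the Cre group. Every Cre library was below every control, with a log2 fold change of -1.05 (95% interval -1.32 to -0.78, edgeR adjusted p = 0.0174). It kept its call with the replicate block (adjusted p = 0.0259) and lost it without any 1 control library or without Cre library 1 (0.0555 to 0.102). The interval of its relative *Tnc* ended at -0.56. *Cnmd*, the closest relative of *Tnmd*, was at 1.64, 24.2 and 0.822 CPM in the control group and at 0.782, 1.03 and 1.08 CPM in the Cre group. Control library 2, which also had the highest cartilage sum, set its log2 fold change of -3.20 (edgeR adjusted p = 0.308), which was -0.35 without that library.

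Of 9 genes of tendon progenitors and the tendon sheath, 0 passed the test by edgeR, while 5 had an unadjusted p under 0.05 and DESeq2 called *Cd34*, lower in the Cre group, and *Ctsk*, higher with a log2 fold change of 0.30. The median log2 fold change was -0.20 and 7 of 9 estimates were lower in the Cre group. Over all genes, 14.5% had an unadjusted p under 0.05, edgeR called 0.898% and DESeq2 called 4.68%. *Ly6a*, which encodes the stem cell antigen Sca-1, was at 141, 166 and 123 CPM in the control group and at 88.7, 129.9 and 76.5 CPM in the Cre group, with a log2 fold change of -0.54 (edgeR adjusted p = 0.289). *Cd34*, a surface marker of progenitors and of endothelium, was at 385, 445 and 349.7 CPM in the control group and at 279.9, 333 and 261 CPM in the Cre group, with a log2 fold change of -0.43 (edgeR adjusted p = 0.169). The groups overlapped for *Ly6a* and not for *Cd34*.

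**Figure D4:**
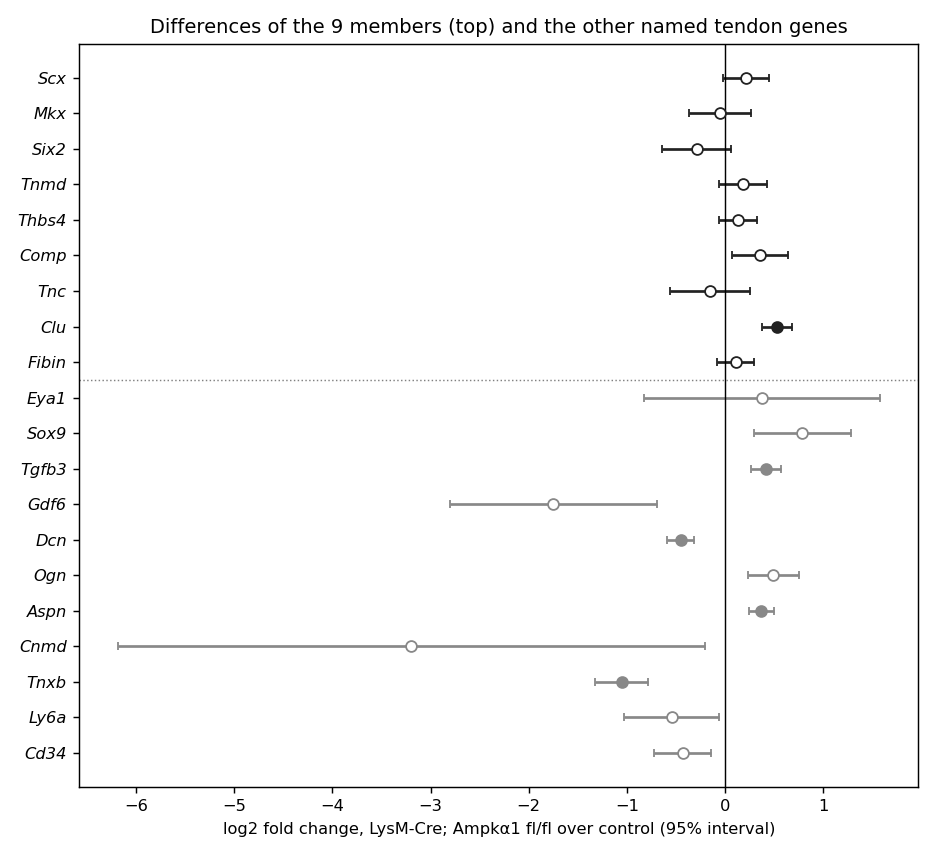
Log2 fold change (Cre group over control, horizontal axis) with its 95% interval for the 9 tendon genes (black, above the dotted line) and the other tendon genes named by rule (grey), from 3 mice per group. Filled circles passed an adjusted p of 0.05, and they are *Clu*, *Tgfb3*, *Dcn*, *Aspn* and *Tnxb*, while the interval of *Cnmd* runs from -6.19 to -0.21.

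The gene totals rested mostly on 1 transcript each. The main transcript took at least 85.8% of the reads in every library for 8 of the 9 genes. For *Tnc*, with 6 transcripts, it took between 50.7% and 56.1%, with 53.4% to 56.1% in the control group and 50.7% to 53.3% in the Cre group. *Scx* lies inside the span of *Bop1*, a ribosome biogenesis gene, and how reads were divided by strand is not given in the sources used here. *Bop1* averaged 36.2 CPM, with a log2 fold change of 0.03 (edgeR adjusted p = 0.884).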

How the data were processed

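RNA sequencing (BGISEQ) of injured neonatal Achilles tendon was analysed for 3 control and 3 *LysM-Cre; Ampkα1 fl/fl* mice, with groups taken from the sample labels. The authors deposited, per RefSeq transcript, raw estimated counts of reads and TPM values. The build in the submitters' processing notes is GRCm38.p6, and the aligner and counting tool are not given in the sources used here. In addition, 20 value columns (6 of FPKM, 6 normalized and 8 group averages) were not used.

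Estimated counts were summed over the 65053 transcripts per gene, rounded to whole reads, and matched to symbols by NCBI Gene identifier (18049 of 18099 genes). Library totals were 18076805 to 19479887 reads. Differences were tested with edgeR 4.0.16 in R 4.3.3 (TMM, filterByExpr, quasi-likelihood F test, Benjamini-Hochberg adjustment over 14261 genes, threshold 0.05), with no block. The study names unpaired t-tests for its quantitative data and no test for the sequencing counts, so the main fit was left unpaired. SE was taken as the log2 fold change over the root of F. Single genes also had a two-sided exact permutation test on log2(CPM + 0.5). Likeness used log2 CPM with a prior count of 2. The pipeline was checked on simulated counts.

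The alternatives were DESeq2 1.42.0, RLE and upper quartile scaling, no filter, at least 10 reads in every library, limma 3.58.1 on log2(TPM + 1), the replicate number as a block, and leaving out each library. The labels do not say what the replicate numbers mark. Deviations of same-numbered libraries from their group means correlated at 0.118 to 0.31, and those of other pairs at -0.55 to 0.5. These values do not settle whether the libraries are paired. The replicate numbers were taken as pairs only in the blocked fit and the counts of pairs, and blocked values are given where they change a call. No 2 libraries agreed within sampling noise.

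Named genes were all 9 genes of the list, the target, the Cre locus, every called gene and the 2 largest changes of each tendon list, and the 5 genes most like *Scx* and *Tnmd*. *Egr1*, *Egr2*, *Eya2*, *Nfatc4*, *Tgfb1*, *Tgfb2*, *Tgfbr2*, *Acan*, *Ctsk*, *Col1a1*, *Col1a2*, *Thbs2*, *Thbs3*, *Tnn* and *Bop1* are named outside that rule. The 9 genes and all lists were chosen with earlier results of these data known. 1 gene of the lists is not reported here and was left out of their counts.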

Additional observations from a re-analysis of the deposited data

How the results depend on the processing

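Over 13 alternatives, 109 of 117 values of the 9 genes kept their direction and their side of the threshold. For the other tendon genes named by rule 111 of 142 did. Most of the 117 values belong to the 8 uncalled genes, for which keeping their side means staying uncalled. *Clu*, the 1 called gene, kept its call in 8 of 13 alternatives and lost it in 5. The number of the 9 genes past the threshold (1) was 2 with DESeq2, 0 with the replicate block and 0 to 1 on leaving out 1 library (1 without Cre library 2 or 3, 0 without any other). The number of genes of the tendon lists past it (4) was 19 with DESeq2, 2 with upper quartile factors, 2 with limma on log2(TPM + 1), 1 with the replicate block and 0 to 6 on leaving out 1 library. Of all genes, 128 passed, and the count was 685 with DESeq2, 68 with limma and 47 with the replicate block. Leaving out 1 library gave counts from 8 to 276, with 10, 8 and 24 without control library 1, 2 or 3 and 12, 276 and 60 without Cre library 1, 2 or 3. Among the 9 genes and the genes of the tendon lists named by rule, the block changed the calls of *Clu*, *Tgfb3*, *Dcn* and *Aspn* and no other. The log2 fold change of *Mkx* (-0.05) was 0.0675 without control library 3 and 0.0281 without Cre library 2; that of *Eya1* was -0.15 without Cre library 3; on leaving out 1 library they ran from -0.17 to 0.07 and from -0.15 to 0.78. Over these settings none of the other genes in that set changed direction. The cause was not tested. With 3 mice per group, the 95% intervals of the 8 uncalled genes still allowed changes of up to 1.55-fold higher for *Comp* and down to 0.64 of the control level for *Six2*.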

Other observations

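The remaining lists of other cell types had these values. Beside them, 0.898% of all genes passed by edgeR and 4.68% by DESeq2, and 14.5% had an unadjusted p under 0.05. Of 7 erythrocyte genes, 7 had lower estimates and 6 passed the test by edgeR, which became 1 with the replicate block and 3 with limma on TPM, with a summed level between 1997 and 2973 CPM in the control group and between 676 and 983 CPM in the Cre group. Of 8 bone genes, 0 passed the test by edgeR and 6 by DESeq2, and 6 had an unadjusted p under 0.05, 5 of them lower. The bone estimates were lower for 6 of 8 genes, with a median log2 fold change of -1.57, although the sum over the list was 97 to 143 CPM in the control group and 144 to 175 CPM in the Cre group. The 5 Schwann cell genes summed to between 120 and 6262 CPM in the control group and between 675 and 2655 CPM in the Cre group, the 5 adipocyte genes to between 190 and 350 CPM and between 64.6 and 238 CPM, and the 4 epidermis genes to between 5.98 and 16.8 CPM and between 1.77 and 58.5 CPM. None of these 14 genes passed the test by edgeR and 1 did by DESeq2, and 2 of them, both of the adipocyte list, had an unadjusted p under 0.05. In the tendon matrix list, 11 of 26 genes had groups that did not overlap, 6 higher and 5 lower in the Cre group, against 20.4% of all genes tested.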
